A study of Bos taurus with 4 samples.

Results

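Splicing factors and heterogeneous nuclear ribonucleoproteins (hnRNPs) were described in the semitendinosus muscle, a hind-limb muscle, of bulls of a beef and a dairy breed. The members were all genes whose symbol begins with SRSF, HNRNP, SNRP, SF3A, SF3B, U2AF, PRPF or LSM followed by a letter or digit, and each was represented by its brightest probe. The RefSeq gene table held 83 bovine symbols of this kind, of which 44 (53.0%) were matched to the array, and these 44 stood among 6376 genes that were named and detected. They comprised 4 SRSF, 10 HNRNP, 9 SNRP, 6 SF3A and SF3B, 2 U2AF, 5 PRPF and 8 LSM genes. All 44 were well above background in both channels of all 4 arrays. The groups were Limousin (LIM, beef) and Holstein-Friesian (HF, dairy) bulls, all 15 months old at slaughter, with no treatment named in the labels. Muscle was sampled from single animals, with connective tissue and fat trimmed off per the study's methods. RNA of 1 LIM bull, labelled with Cy5 (red), was hybridised together with RNA of 1 HF bull, labelled with Cy3 (green), to each of 4 two-colour arrays, which gives 4 bulls of each breed. The dyes were never swapped, and the effect of the breed and that of the dye therefore cannot be told apart.

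Splicing removes introns from precursor mRNA in the spliceosome, a machine built on small nuclear RNAs and their proteins. The U1 particle recognises the start of the intron, and U2AF and the U2 particle with its SF3A and SF3B subcomplexes recognise its end and branch site. The U4/U6.U5 tri-snRNP then joins and is remodelled before catalysis. PRPF proteins act in the tri-snRNP and in these later steps. Sm and Lsm proteins form the rings that hold the small nuclear RNAs, while SR proteins and hnRNPs bind the transcript itself and promote or repress the use of exons. Skeletal muscle is known for extensive alternative splicing of its contractile protein transcripts. The array measured the abundance of the mRNAs that encode these factors, not the splicing of any transcript.

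Values are log2 ratios of the LIM over the HF channel, so that a positive value means more signal in LIM. This direction was taken from the dye labels. It is the opposite of the direction given in the study's text for MSTN (myostatin), FST (its antagonist follistatin), SMAD2 and GSK3B. The log2 ratio was 0.68 for MSTN, 0.49 for SMAD2 and 0.40 for GSK3B, and that of FST was negative. SMAD2 and GSK3B passed the test described below (limma, adjusted p = 0.0311 and 0.0441), while MSTN and FST did not (0.0505 and 0.0545). The study also reported its direction by RT-qPCR for these genes and by Western blot for MSTN protein. The sign of every ratio thus rests on the labels, against those assays for these genes, and the labels themselves were not tested. Normalization was by loess, a fit per array that removes any trend with brightness. The alternative of centring each array on its median is called median centring. Where it turned the sign of the mean of a described member or other RNA processing gene, that value or the range of such values is given. Cell type markers are given after loess only. Errors are moderated standard errors (SE) of limma over 4 arrays, and a gene was said to rise or fall only where its p-value, adjusted by the Benjamini-Hochberg method over all 15856 probes tested, was under 0.05. In whole muscle, fewer cells of a type and less RNA per cell cannot be told apart.

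Of the 44 genes, 1 passed the test, against 5.47% of all probes tested (2.96% higher and 2.51% lower in LIM; by named gene, 2.78% higher and 3.15% lower). This gene was SF3A2, a subunit of the SF3A subcomplex of the U2 particle, which rose in LIM. The remaining 43 genes did not pass, and their means spread evenly about 0, with 22 of the 44 above and 22 below it. At an unadjusted p under 0.05, 8 members were higher in LIM (18.2%, against 15.1% of probes) and 9 were lower (20.5%, against 12.2% of probes). By named gene, the closer comparison, 911 of the 6376 genes were higher and 932 were lower. The median of the 44 mean ratios was -0.017, against 0.0029 for all 6376 genes. Members deviated from 0 by a median of 0.21, against 0.15 for all genes, and their median SD between arrays was 0.27, against 0.21. These baselines were not matched for brightness. A mean log2 intensity of 8 or less was found in 2534 of the 6376 genes, with a median SD of 0.14, but in only 3 members. In the intensity ranges above 8, the median SD was 0.25 to 0.26 for genes and 0.20 to 0.34 for members. The 95% confidence interval lay within 0.5 of 0 on both sides for 21 of 44 members (47.7%, against 60.2% of genes, again not matched for brightness), so for the other 23 a difference of that size could not be bounded with 4 arrays.

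The ratio had the same sign on all 4 arrays in 14 of the 44 genes. It was above 0 throughout in 8 members (18.2%, against 18.7% of genes) and below 0 throughout in 6 (13.6%, against 17.4% of genes). The normalized levels of the 4 LIM bulls lay wholly above those of the 4 HF bulls in 5 members, SRSF4, SNRPA1, SNRPB2, SF3A2 and U2AF2 (11.4%, against 8.56% of genes). They lay wholly below in 1 member, LSM3 (2.27%, against 8.50% of genes). These shares were close to or below those of the whole array, apart from the 11.4%.

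**Figure D1:**
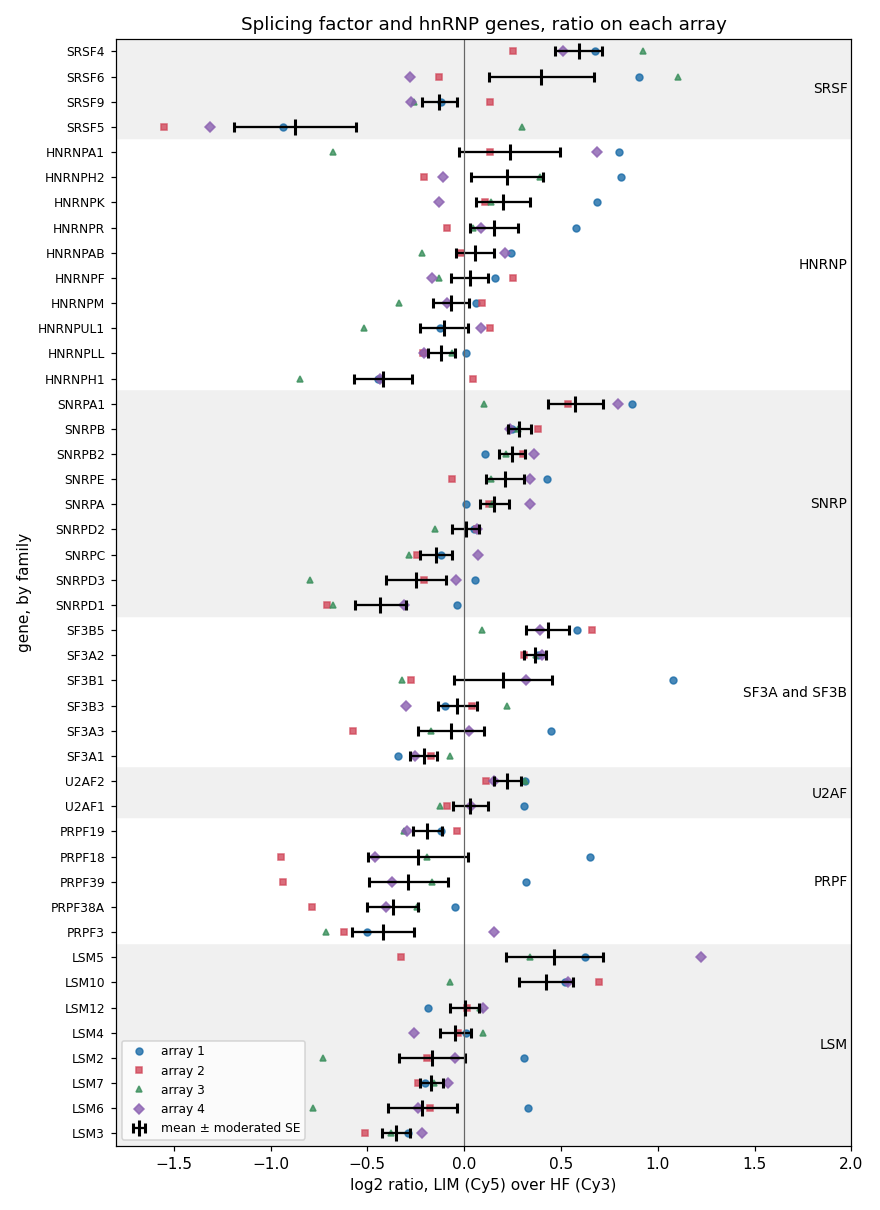
Log2 ratio of LIM (Cy5) over HF (Cy3) of the 44 genes, with 1 coloured point for each of the 4 arrays and a black bar for the mean with its moderated SE. Most genes had points on both sides of 0, while the 4 points of SF3A2 lay together between 0.31 and 0.40 and those of SRSF5 ran from -1.55 to 0.30.

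The SF3A and SF3B genes encode the subcomplexes that anchor the U2 particle at the branch site. SF3A2 had log2 ratios of 0.38, 0.31, 0.37 and 0.40 on arrays 1 to 4. Its normalized log2 intensity was 9.52, 9.38, 9.73 and 9.70 in the 4 LIM bulls, against 9.13, 9.07, 9.35 and 9.30 in the HF bulls of the same arrays. The levels of the breeds did not overlap, but only narrowly, with the lowest LIM level at 9.38 (array 2) and the highest HF level at 9.35 (array 3). The ratio was nearly the same on each array, and the levels of both channels rose and fell together from array to array. Each bull was on 1 array, so in these levels differences between bulls and between arrays cannot be told apart. The mean was 0.37 ± 0.057 (moderated SE, n = 4; 95% confidence interval 0.22 to 0.51), a 1.29-fold higher signal in LIM (limma, adjusted p = 0.0369). The call held under 8 of 15 other ways of processing and under none of the 4 fits that left out 1 array, where the mean stayed between 0.36 and 0.39 and the adjusted p lay between 0.0891 and 0.135. The 15 include Aquantile, which rescales brightness between arrays, leaves every ratio unchanged and so could not change a call. The size of the difference depended on the processing, with a mean of 0.39 without background correction, 0.42 on the processed signals and 0.90 under median centring.

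The other subunits of the same complexes did not pass. SF3B5, the small subunit of SF3B, had ratios of 0.59, 0.66, 0.091 and 0.39, with a mean of 0.43 ± 0.11 (adjusted p = 0.0847). SF3A1, which holds the SF3A subcomplex together with SF3A2 and SF3A3, had -0.34, -0.17, -0.074 and -0.25, with a mean of -0.21 ± 0.070 (adjusted p = 0.136) that became 0.42 under median centring. After loess, SF3A2 was positive and SF3A1 negative on all 4 arrays, and the difference between them was not tested. SF3A3 averaged -0.070 ± 0.17 (0.54 under median centring) and ran from -0.58 on array 2 to 0.45 on array 1. SF3B1, the large subunit that contacts the branch site, averaged 0.20 ± 0.25 and was high on array 1 alone, with 1.08, -0.28, -0.32 and 0.32. A dimmer probe of SF3B1 averaged 0.23, also with its highest ratio on array 1 (0.86). SF3B3 averaged -0.035 ± 0.10.

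**Figure D2:**
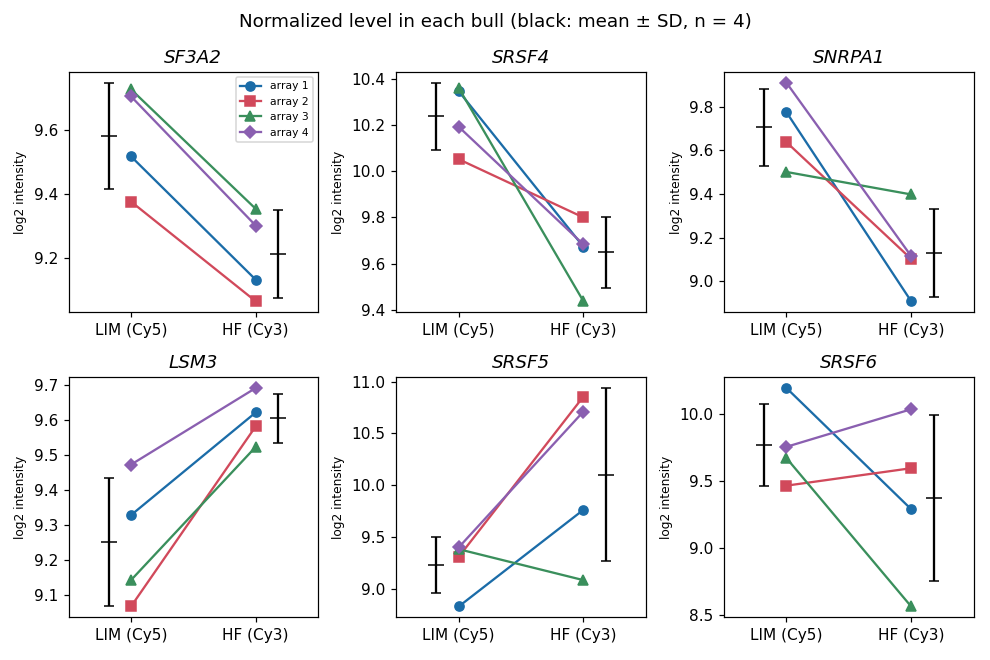
Normalized log2 intensity of 6 genes in each bull, with LIM on the left, HF on the right, a line joining the bulls hybridised to the same array, and the mean with its SD (n = 4 each) in black beside the points. The breeds were apart in SF3A2, SRSF4, SNRPA1 and LSM3 and overlapped in SRSF5 and SRSF6, where the HF bulls spread over more than 1 log2 unit.

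U2AF recognises the end of the intron before the U2 particle binds. U2AF2, the large subunit, which binds the polypyrimidine tract, had ratios of 0.32, 0.11, 0.31 and 0.16. Its level was 15.30, 15.18, 15.30 and 15.19 in LIM, against 14.99, 15.07, 14.99 and 15.04 in HF. The breeds did not overlap, but the mean of 0.22 ± 0.068 did not pass the test (adjusted p = 0.116). U2AF1, the small subunit, which contacts the dinucleotide at the intron's end, averaged 0.032 ± 0.093, and its mean became -0.060 without array 1.

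The SNRP genes encode proteins of the U1 and U2 particles and of the Sm ring, the core shared by most spliceosomal particles. None of the 9 passed the test, and their median ratio was 0.16. SNRPA1, a U2 protein, had ratios of 0.87, 0.53, 0.10 and 0.79, and a mean of 0.57 ± 0.14 (1.49-fold, adjusted p = 0.079). Its level was 9.77, 9.64, 9.50 and 9.91 in LIM, against 8.91, 9.10, 9.40 and 9.12 in HF, so that the breeds were apart, by only 0.10 on array 3. SNRPB2, the partner of SNRPA1 on U2 RNA, was measured at 7.23, 7.35, 7.31 and 7.28 in LIM, against 7.12, 7.04, 7.09 and 6.92 in HF. Its levels did not overlap either, with a mean ratio of 0.25 ± 0.069 (adjusted p = 0.0988).

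Of the U1 proteins, SNRPA averaged 0.16 ± 0.076 and SNRPC -0.15 ± 0.082, with SNRPC at 0.50 under median centring. The Sm ring genes had ratios on both sides of 0. SNRPB had 0.25, 0.38, 0.28 and 0.24, with little spread between arrays (SD 0.066) and a mean of 0.28 ± 0.060 (adjusted p = 0.0616). SNRPE averaged 0.21 ± 0.10, SNRPD2 0.0078 ± 0.068 and SNRPD3 -0.25 ± 0.15. SNRPD1 had -0.038, -0.71, -0.68 and -0.31, with a mean of -0.43 ± 0.13 (adjusted p = 0.118). Its level was 10.56, 10.38, 10.02 and 10.07 in LIM, against 10.60, 11.09, 10.70 and 10.37 in HF, which overlapped, and the means of SNRPD1 and SNRPD3 became 0.16 and 0.39 under median centring. The 5 measured subunits of this ring thus had ratios of both signs after loess and positive means under median centring.

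PRPF proteins act in the tri-snRNP and in the activation and catalysis of the spliceosome. All 5 PRPF genes had a mean below 0, none passed the test, and all 5 means turned positive under median centring in place of loess (0.010 to 0.44). Their median was -0.29, or 0.19 under median centring. PRPF3, a protein of the U4/U6 particle, had ratios of -0.50, -0.62, -0.71 and 0.16 and a mean of -0.42 ± 0.16 (adjusted p = 0.169), with array 4 opposed to the other arrays. PRPF19, the core of the complex that stabilises the catalytic spliceosome, had -0.12, -0.036, -0.31 and -0.30 and a mean of -0.19 ± 0.075 (adjusted p = 0.182). PRPF38A, needed for activation, averaged -0.37 ± 0.13 (adjusted p = 0.150). A dimmer probe of PRPF38A had -0.33, -0.56, -0.46 and -0.52 and a mean of -0.47 ± 0.066, which passed the test (adjusted p = 0.0326), so the call on this gene depended on the probe. PRPF18, which acts in the last catalytic step, and PRPF39, a U1-associated factor in yeast, averaged -0.24 ± 0.26 and -0.29 ± 0.20, and both had their highest ratio on array 1 (0.65 and 0.32) and their lowest on array 2 (-0.94 in both).

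The LSM genes comprise subunits of the Lsm rings on U6 RNA and on decaying mRNA, together with relatives that serve other RNAs. None of the 8 passed. LSM3 had ratios of -0.29, -0.51, -0.38 and -0.22. Its level was 9.33, 9.07, 9.14 and 9.47 in LIM, against 9.62, 9.58, 9.52 and 9.69 in HF. Every LIM bull was below every HF bull, and the mean was -0.35 ± 0.073 (adjusted p = 0.0593), or 0.18 under median centring. Of the ring subunits, LSM7 averaged -0.17 ± 0.060, with 4 ratios below 0, LSM6 -0.22 ± 0.18, LSM2 -0.17 ± 0.17 and LSM4 -0.047 ± 0.079, and all of these became positive under median centring (0.25 to 0.55). LSM5 was the exception among them, with 0.62, -0.32, 0.34 and 1.22 and a mean of 0.47 ± 0.25 (adjusted p = 0.298). LSM10, a subunit of the U7 particle that processes histone mRNA, had 0.52, 0.70, -0.071 and 0.54 and a mean of 0.42 ± 0.14 (adjusted p = 0.134). LSM12 averaged 0.0015 ± 0.074.

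SR proteins bind exons and generally favour their inclusion. The 4 SRSF genes spread more widely than any other family, between means of -0.87 and 0.59. SRSF4 had ratios of 0.68, 0.25, 0.93 and 0.51. Its level was 10.35, 10.05, 10.36 and 10.19 in LIM, against 9.67, 9.80, 9.44 and 9.68 in HF. All LIM bulls were above all HF bulls, and the mean of 0.59 ± 0.12, a 1.51-fold higher signal, missed the threshold (adjusted p = 0.0571) but passed it under 5 of 15 alternatives. SRSF5 had -0.94, -1.55, 0.30 and -1.31, with a mean of -0.87 ± 0.32 (adjusted p = 0.158), the lowest of the 44. Its level was 8.83, 9.31, 9.38 and 9.40 in LIM, against 9.76, 10.86, 9.08 and 10.71 in HF. The HF bulls spread with an SD of 0.84, against 0.27 in LIM, and the HF bull of array 3 stood below 3 of the 4 LIM bulls. SRSF6 also split the arrays, with 0.90, -0.13, 1.10 and -0.28 and a mean of 0.40 ± 0.27, and its HF level ran from 8.57 to 10.03. SRSF9 averaged -0.13 ± 0.090, or 0.44 under median centring. In both SRSF5 and SRSF6 the HF bull of array 3 had the lowest level of all 8 bulls but for 1 LIM bull in SRSF5.

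The hnRNPs coat nascent transcripts, and many of them oppose exon inclusion. None of the 10 passed the test, no member kept one sign on all 4 arrays, and the median was 0.042. HNRNPH1, which binds runs of G, had ratios of -0.45, 0.046, -0.85 and -0.43 and a mean of -0.42 ± 0.15 (adjusted p = 0.152), or 0.23 under median centring. Its level was 11.71, 12.56, 11.82 and 11.89 in LIM, against 12.16, 12.51, 12.67 and 12.32 in HF, with the LIM bull of array 2 among the HF bulls. Its relatives HNRNPH2 and HNRNPF averaged 0.22 ± 0.19 and 0.029 ± 0.10. HNRNPA1, a widely acting splicing repressor, had 0.80, 0.13, -0.68 and 0.68 and a mean of 0.23 ± 0.26 (adjusted p = 0.610), the highest of the family. Its level varied little in LIM (11.74 to 12.08) and more in HF (11.28 to 12.42), and the ranges were nested. HNRNPK, which binds runs of C, averaged 0.20 ± 0.14, while its dimmer probe averaged -0.070. HNRNPR averaged 0.16 ± 0.12, HNRNPAB 0.055 ± 0.10, HNRNPM -0.068 ± 0.092, HNRNPUL1 -0.11 ± 0.12 and HNRNPLL -0.12 ± 0.069, and the last 3 became positive under median centring (0.086 to 0.57).

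**Figure D3:**
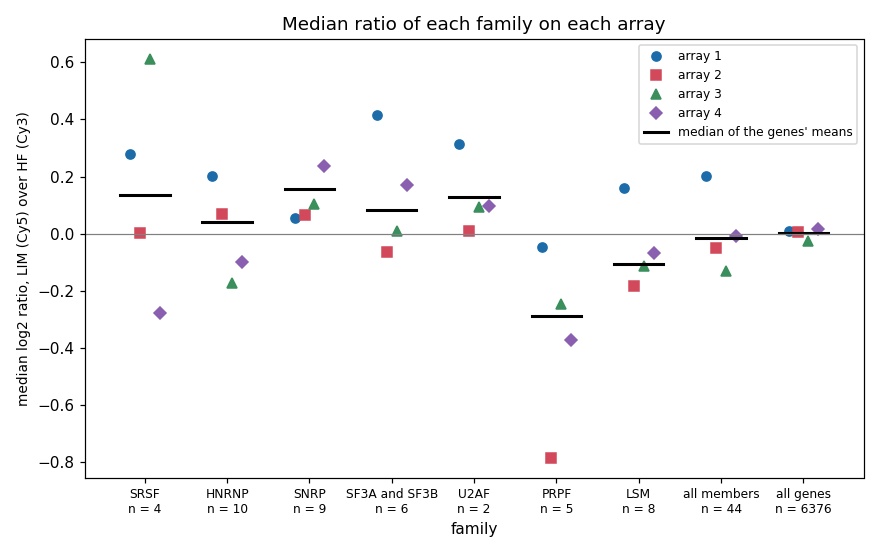
Median log2 ratio of LIM (Cy5) over HF (Cy3) of each family on each of the 4 arrays (coloured points), with the median of the genes' means as a black line and the number of genes under each name. The PRPF median of -0.29 was the lowest and became 0.19 under median centring, while the median of all 6376 genes stayed near 0 on each array.

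The arrays did not move the members alike. Array 1 gave the highest of the 4 ratios in 19 of 44 members (43.2%, against 29.8% of genes), and 33 of 44 members were above their own mean on it. Array 3 gave the lowest ratio in 17 members (38.6%, against 31.8% of genes), and 29 were below their own mean there. The shares of genes were not matched for brightness, and counts about the own mean were not taken for all genes. Array 1 was highest in 14 of the 26 members with a mean log2 intensity over 10 and in 5 of the 18 dimmer ones. Array 3 was lowest in 13 of the brighter and 4 of the dimmer members. Among the 87 other RNA processing genes described below, array 1 was highest in 32.2% and array 3 lowest in 37.9%. The median of the members was 0.20, -0.049, -0.13 and -0.0098 on arrays 1 to 4, while that of all genes was 0.0092, 0.0064, -0.025 and 0.016. In 10 members array 1 was the highest and array 2 the lowest (22.7%, against 10.3% of genes). Across the 44 genes the ratios of pairs of arrays correlated with Pearson's r between 0.17 and 0.61, and across all probes with r between 0.40 and 0.60. These are descriptions across genes, which share the array and its normalization and are not independent replicates.

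Levels of the members varied somewhat more among HF than among LIM bulls. The median SD between bulls was 0.16 in LIM and 0.19 in HF, against 0.14 and 0.19 for all genes, so the members followed the array in this. Single genes were further apart, for instance LSM6, with an SD of 0.057 in LIM and 0.44 in HF. The scanner channel and the breed are the same split here, and these spreads were not tested.

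The normalization set the sign of many ratios. Loess left the median of genes above a mean log2 intensity of 8 at -0.0015 and that of the 41 members above it at 0.0015. Centring each array on the median of all its spots instead left them at 0.55 and 0.57, and moved the median of all genes by about 0.35. Under it 42 of 44 members had a mean above 0, with SRSF5 and SF3B3 as the exceptions, and 23 passed the test as higher and 0 as lower (52.3% higher, against 22.2% of all probes higher and 1.73% lower). Among features above that intensity the share was 56.1% of the 41 members and 38.7% of 3842 genes. SF3A2 was called higher in LIM under both normalizations, with a mean of 0.90 under median centring, against 0.37 after loess.

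**Figure D4:**
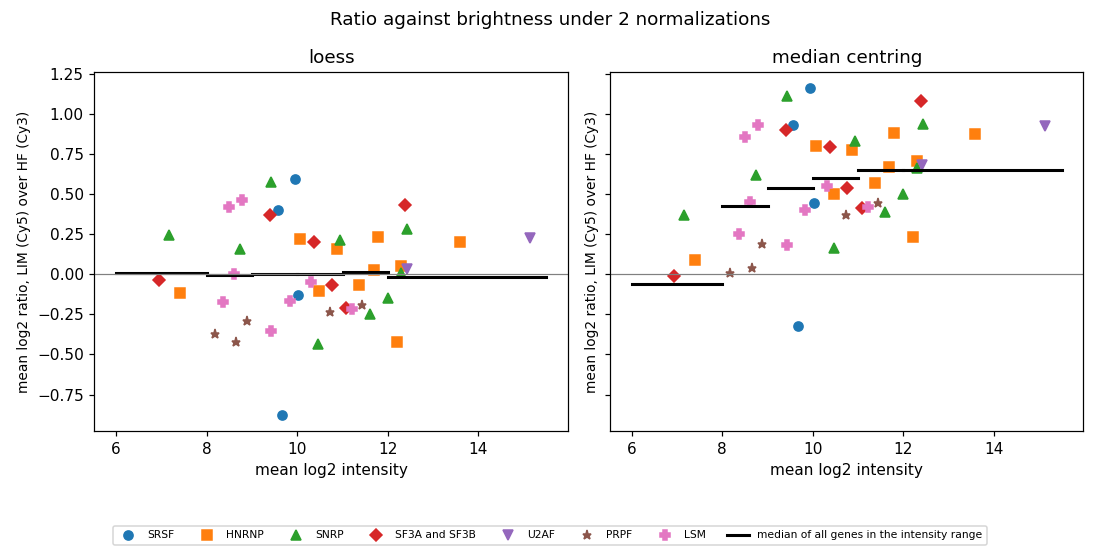
Mean log2 ratio of LIM (Cy5) over HF (Cy3) of the 44 genes against their mean log2 intensity, after loess (left) and after median centring (right), with symbols by family and black lines for the median of all genes in each intensity range. After loess the lines lay near 0 at every brightness, and after median centring they reached 0.65 in the 2 brightest ranges.

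The other genes of RNA processing were read from 6 lists that the name rule leaves out, of which 87 of 171 genes were measured. Of these, 1 rose and 3 fell (4.60%, against 5.47% of probes), and 55 of 87 means were below 0, or 11 under median centring. PCBP2, a protein that binds runs of C in mRNA, had ratios of 0.66, 0.75, 0.94 and 0.31 and rose by 0.66 ± 0.11 (1.59-fold, adjusted p = 0.0434). Its level was 12.35, 12.62, 12.74 and 12.24 in LIM, against 11.69, 11.87, 11.80 and 11.92 in HF, with no overlap. FUBP1, which binds single-stranded DNA and RNA and is known from the regulation of MYC, had -0.88, -0.74, -1.28 and -0.76 and fell by 0.92 ± 0.11 (adjusted p = 0.0258). Its level was 8.37, 8.09, 7.87 and 7.79 in LIM, against 9.24, 8.84, 9.15 and 8.56 in HF, again with no overlap.

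DDX17, an RNA helicase that takes part in alternative splicing, had ratios of -1.10, -0.45, -0.52 and -0.96 and fell by 0.76 ± 0.13 (adjusted p = 0.0446), or by 0.097 without passing the test under median centring. Its close relative DDX5 averaged -0.78 ± 0.19 and did not pass (adjusted p = 0.0751). EIF4A3, the helicase at the core of the exon junction complex, had -0.32, -0.36, -0.26 and -0.36 and fell by 0.32 ± 0.058 (adjusted p = 0.0457), with a mean of 0.26 under median centring. MAGOH, its partner in that complex, averaged -0.49 ± 0.10 (adjusted p = 0.0624), or 0.041 under median centring. Of the 15 alternatives, the call held under 11 for PCBP2, 13 for FUBP1, 10 for DDX17 and 5 for EIF4A3, which was lost without background correction, with an offset of 0 and on the processed signals, among others. Each of these counts includes Aquantile, which leaves the ratios unchanged. None of these 4 calls held when any 1 array was left out, with adjusted p between 0.0887 and 0.134 for PCBP2, 0.0561 and 0.0911 for FUBP1, 0.0886 and 0.153 for DDX17 and 0.102 and 0.159 for EIF4A3.

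After loess, the median ratio by list was -0.035 for 22 further proteins of the U particles, -0.20 for 14 genes of activation and catalysis, -0.040 for 9 genes of Sm ring assembly, -0.030 for 15 genes of the exon junction and mRNA export, -0.041 for 6 SR protein kinases and phosphatases and -0.10 for 21 splicing regulators, and all 6 medians were positive under median centring (0.36 to 0.55). The list nearest in role to the PRPF genes, that of activation and catalysis, had 11 of 14 means below 0 (1 under median centring) with none past the test. Its lowest members were PPWD1 (-0.50 ± 0.11, adjusted p = 0.0651, or -0.017 under median centring) and SNW1 (-0.49 ± 0.15, adjusted p = 0.123, or 0.12 under median centring). Among the U particle proteins, USP39, a tri-snRNP factor, averaged 0.48 ± 0.091 (adjusted p = 0.0506) and PHF5A, a subunit of SF3B outside the name rule, averaged 0.45 ± 0.12 (adjusted p = 0.0866).

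**Figure D5:**
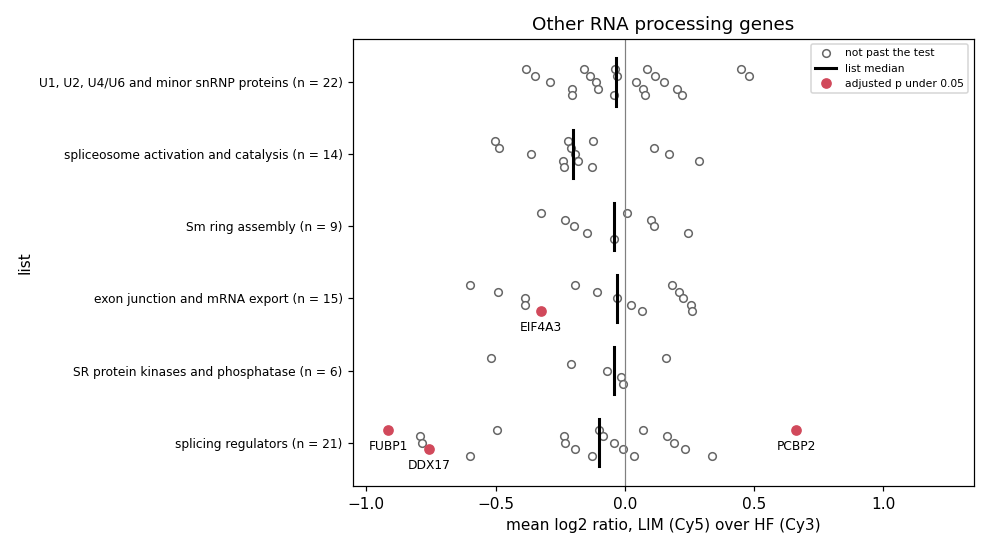
Mean log2 ratio of LIM (Cy5) over HF (Cy3) of the 87 measured genes in 6 lists, with 1 point per gene, red where the adjusted p was under 0.05, and a black line at the list median. PCBP2 stood apart at 0.66 and FUBP1 at -0.92, and the list medians lay between -0.20 and -0.030 (0.36 to 0.55 under median centring).

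Of 42990 spots per array, 32513 to 33527 exceeded background clearly in LIM and 27102 to 28769 in HF. Markers of the labelled tissue were present. Of 10 skeletal muscle genes, 8 were measured and all 8 were well above background, with a summed intensity of 826741 to 904585 in LIM and 752861 to 949300 in HF. MB (myoglobin) rose by 1.02 ± 0.15 (2.03-fold, adjusted p = 0.0326). The others did not pass, with means after loess of 0.55 for ACTA1, 0.27 for MYL1, 0.076 for CKM, -0.044 for MYH1, -0.38 for DES, -0.51 for MYH2 and -1.06 for MYH7. The median of this list was 0.016. Of the 5 fibroblast markers all were measured, with a summed intensity of 19924 to 36389 in LIM and 10492 to 21610 in HF, and COL3A1 rose. The other fibroblast markers did not pass, with means after loess of 1.14 for COL1A1, 0.66 for LUM, -0.23 for DCN and -0.27 for PDGFRA. Of the 4 neutrophil and mast cell markers all were measured, 3 of them above background, with sums of 592 to 673 in LIM and 939 to 1166 in HF, and TPSB2 fell. Sums of 3 of 5 lymphocyte markers were 332 to 348 in LIM and 358 to 435 in HF. CD3E and CD2, but not MS4A1, were well above background in both channels of all 4 arrays. The mean ratios of the lymphocyte markers went both ways, at -0.52 for CD3E, 0.023 for CD2 and 0.062 for MS4A1, and none passed the test. Both lists were dim, with mean log2 intensities of 6.35 to 7.17 for the lymphocyte markers. The neutrophil and mast cell markers other than TPSB2 (9.05) had 6.21 to 6.65. The sums of adipocyte, endothelial, macrophage and erythrocyte markers overlapped between the breeds. The part of these cells in the ratios of the splicing genes was not tested.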

How the data were processed

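Total RNA of m. semitendinosus of 4 LIM and 4 HF bulls was compared on 4 Agilent two-colour arrays, LIM in Cy5 and HF in Cy3 throughout. Per the file headers, the authors quantified the arrays with Feature Extraction 10.7.3.1. The deposited intensity values are the median foreground and background brightness of each spot in each dye, not normalized. The deposited log10 ratios come from the software's processed signals (background subtracted, dyes normalized), and the series table held the same log10 ratios (largest difference 0, column medians 0). The authors' methods name a t-test with a 1.3-fold minimum.

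Intensities were background-corrected (normexp, offset 50, which shrinks ratios of dim probes) and normalized within arrays by loess in limma 3.58.1 (R 4.3.3), with control spots at weight 0 and 5 to 10 non-uniform spots per array left out. No spot was saturated. Spots were averaged into 21475 probes, of which 15856 passed a filter on dim probes (at least 3 arrays well above background in one and the same channel). Mean log2 ratios were tested against 0 (two-sided, lmFit and eBayes) with Benjamini-Hochberg adjustment over these probes, and the fit was tested on simulated data. Levels per bull were the channels after loess and Aquantile. Probes were named through their accessions in a RefSeq table of ARS-UCD2.0 (8297 probes, 7788 symbols). The array design uses an older build, so no coordinates are given. Of 318 genes with several kept probes the brightest was used.

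The members, the 6 lists and the tests were chosen with earlier results of these data known. Genes named are those past the test, the highest and lowest of each family, and further members and list genes given as values. SNRPB, SNRPB2 and the further genes were named after their values were seen. Alternatives covered background, normalization, filter, variance model, weights, the methods' t-test, the series table, unpaired channels, the mean over a gene's probes, and the omission of each array. The labels describe 4 biological replicates, and all arrays were on 1 slide, so no slide block could be fitted.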

Additional observations from a re-analysis of the deposited data

Results flagged for a closer look

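SNRPD2, an Sm ring protein, had log2 ratios of 0.052, 0.065 and 0.068 on arrays 1, 2 and 4 and of -0.15 on array 3. The gap between array 3 and the nearest other array took up 0.929 of the whole range, above Dixon's critical value for 4 samples. Of 56 values checked in this way (the members, the 4 called genes of the other lists and the medians), 1 was set apart, where chance would give about 2.8.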

How the results depend on the processing

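Of 15 alternatives, 8 (with Aquantile, which leaves the ratios unchanged) kept the call of SF3A2. It was lost with an offset of 0 (adjusted p = 0.0870), with the processed signals (0.0918) and the series table (0.0916), with an intensity trend and robust prior (0.0755), with the unpaired channels (0.0696), with the methods' t-test after Benjamini-Hochberg (0.114) and by the fold minimum of the methods' t-test. The number of members called was 1 in the reported analysis. It was 0 with an offset of 0, the processed signals, the series table and the methods' t-test after Benjamini-Hochberg, 2 with the filter on both channels of all arrays and with the unpaired channels, 3 with the methods' t-test at a 1.3-fold minimum, 23 with median centring and 0 without any 1 array.

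The number of probes called, 868 in the reported analysis, was 1336 with the processed signals, 1339 with the series table, 1310 with the intensity trend and robust prior, 3800 with median centring, 1479 with the methods' t-test and 1 with it after Benjamini-Hochberg, and 0 to 51 without 1 array (51 without array 3 and 0 without array 1, 2 or 4). Other RNA processing genes called, 4 in the reported analysis, were 28 with median centring, 2 with scale normalization, 8 with array weights, 11 with the methods' t-test, 0 with it after Benjamini-Hochberg and 0 to 0 without 1 array. The cause of these shifts was not tested, and the fits that left out 1 array also had fewer arrays.

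Median centring moved the median of SRSF to 0.69, of HNRNP to 0.68, of SNRP to 0.62, of SF3A and SF3B to 0.67, of U2AF to 0.80, of PRPF to 0.19, of LSM to 0.44 and of all members to 0.54. Among the genes followed in every setting (those past the test, the highest and lowest of each family, SNRPB and SNRPB2), it turned HNRNPH1 (0.23), SNRPD1 (0.16), SF3A1 (0.42), PRPF19 (0.44), PRPF3 (0.042), LSM3 (0.18) and EIF4A3 (0.26). In the same set U2AF1 turned without replicate 1 (-0.060, and 0.086 at most without another array). Median centring also turned other members, with 42 of 44 means above 0 under it and 22 after loess. Turns of other members without 1 array are not listed. Without array 1 the median of SF3A and SF3B was -0.054 and that of HNRNP -0.011.

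Each ratio is already a pair of bulls on 1 array. With the channels as separate samples and no replicate block, 1091 probes and 2 members (SRSF4 and SNRPA1) were called, and 6 other RNA processing genes. The limit of the LSM genes to LSM followed by a digit changed no member and was not run. Precision is limited by the 4 arrays: 95% intervals of the members reached a median of 0.29 to either side.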
